A study of Mus musculus with 12 samples.

Results

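The core autophagy genes followed here were Ulk1, Becn1, Atg7, Atg3, Atg12, Atg5, Map1lc3a, Map1lc3b, Gabarapl1 and Sqstm1, measured in the hippocampus of aged Tg2576 mice after chronic treatment with inhibitors of histone deacetylases (HDACs) and phosphodiesterases (PDEs). Each gene was read from the probe set annotated to its symbol alone, and each had exactly 1 such probe set, so that 10 of the 22180 genes with a probe set of their own were described, on arrays with 41345 probe sets. A further probe set shared by Becn1 and Cntd1 was not used. All 10 genes lay over a log2 intensity of 4, the filter on low values, on all 12 arrays, and none was lost to it. Of all probe sets, 34785 did so.

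The series holds 12 Affymetrix Mouse Gene 2.0 ST arrays of hippocampal RNA, which hybridize labeled cDNA to short probes along the exons of each gene. There were 3 mice in each of 4 groups, given CM-695, CM-414, SAHA and tadalafil, or vehicle for 4 weeks, and all of them carried the transgene. CM-695 inhibits HDAC6 more than the class I HDACs and also inhibits PDE9, CM-414 inhibits class I HDACs, HDAC6 and PDE5, SAHA (vorinostat) is a broad HDAC inhibitor, and tadalafil inhibits PDE5. The mice were 16 to 18 months old. The methods describe fear conditioning and the Morris water maze, in the last weeks of dosing, for mice given CM-695 or vehicle. They do not describe these tests for the CM-414 or the SAHA and tadalafil mice. The mice were killed 24 h after dosing ended, per the labels, or 24 h after the final probe trial in the maze, per the methods. Per the study's methods they were female Tg2576 mice, in which the hamster prion promoter drives human APP (the precursor of amyloid-beta) carrying the Swedish mutation, on a C57BL/6/SJL background, while the labels give the strain as B6.Cg-Tg(APPswe)E1-2Dbo/J; which of the descriptions holds could not be settled here. The labels call the control saline, and the methods describe a vehicle of DMSO and Tween-20 in saline. CM-695 and vehicle were injected intraperitoneally, per the methods. No dose was found for CM-414 or for SAHA and tadalafil in the labels or methods, and no wild-type arrays were analysed here.

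In autophagy a double membrane grows around a piece of cytoplasm, closes into an autophagosome and fuses with a lysosome, where the content is degraded. A kinase complex built on ULK1 starts the process, a lipid kinase complex with Beclin 1 (Becn1) marks the membrane, and the ATG7, ATG3, ATG12 and ATG5 proteins attach the small ATG8 proteins (the LC3 and GABARAP families) to it, onto which receptors such as p62 (Sqstm1) tether ubiquitinated cargo. Neurons depend on this route to clear aggregation-prone proteins, and loss of Atg5 or Atg7 in the mouse nervous system leads to neurodegeneration. The pathway is controlled largely at the level of proteins, by phosphorylation and by conjugation to lipid, and arrays of RNA do not measure either.

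The member with the smallest p in each comparison with vehicle was Atg3, the enzyme that hands ATG8 proteins to their lipid. Its RefSeq promoter window (GRCm38.p6) is shown for that reason, beside those of its conjugation partners Atg5 and Atg7. Each window runs from 250 bases before to 50 after a single start per gene, and other starts of these genes were not looked at. Capitals mark CACGTG, the E-box letters that TFEB, a regulator of lysosomal and autophagy genes, and other factors of its class bind. The windows are chr16:45158579-45158878, chr10:44268089-44268388 and chr6:114670846-114671145, all on the plus strand, written 5′ to 3′.
Atg3: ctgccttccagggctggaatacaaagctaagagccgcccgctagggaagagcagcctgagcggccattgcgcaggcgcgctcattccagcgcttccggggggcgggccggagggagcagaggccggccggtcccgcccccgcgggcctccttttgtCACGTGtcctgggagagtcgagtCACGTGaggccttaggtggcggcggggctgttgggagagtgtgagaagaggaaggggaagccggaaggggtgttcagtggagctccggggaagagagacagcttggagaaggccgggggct
Atg5: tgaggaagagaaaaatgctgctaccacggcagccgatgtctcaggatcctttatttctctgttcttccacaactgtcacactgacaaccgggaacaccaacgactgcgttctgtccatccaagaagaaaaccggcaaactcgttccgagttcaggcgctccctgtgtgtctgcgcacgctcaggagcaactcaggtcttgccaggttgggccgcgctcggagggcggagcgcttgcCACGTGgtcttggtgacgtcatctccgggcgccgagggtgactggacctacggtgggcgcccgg
Atg7: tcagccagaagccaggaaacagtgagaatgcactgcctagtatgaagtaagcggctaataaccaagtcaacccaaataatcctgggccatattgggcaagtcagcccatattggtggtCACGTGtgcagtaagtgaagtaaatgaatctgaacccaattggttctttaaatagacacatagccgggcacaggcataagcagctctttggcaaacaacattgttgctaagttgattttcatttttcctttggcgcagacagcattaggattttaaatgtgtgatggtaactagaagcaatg

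A window was given for 7 of the 10 genes, and 3 of them, those printed, hold CACGTG, a palindrome that reads the same on both strands. Atg3 holds it 2 times, with first bases 94 and 71 bases before the start, Atg5 holds it 14 bases and Atg7 132 bases before the start. Among all 32851 windows of the same length, 7.15% hold it at least once and 0.594% at least 2 times. Map1lc3b, Sqstm1, Gabarapl1 and Ulk1 do not have these letters in their windows. Of the other motifs searched on both strands, TGACGT (most of a cyclic AMP response element, in 7.51% of all windows) was in the window of Atg5 alone, as 2 overlapping matches, TGTTTAC (a forkhead motif, 3.65%) was in none, and GGGCGG (a GC box, 35.7%) was in those of Atg3, Atg5, Map1lc3b, Sqstm1, Gabarapl1 and Ulk1. A match of letters is a description of the window and not of binding.

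Across the series, pairs of arrays correlated at 0.978 to 0.991, with 0 pairs of identical arrays. The first principal component held 22.7% of the variance. On it, CM-695 replicate 3, SAHA and tadalafil replicate 1 and vehicle replicate 2 scored 24.1 to 40.3. The other 9 arrays scored from -30.3 to 5.47. The lowest of them, SAHA and tadalafil replicate 2, lay further from 0 than SAHA and tadalafil replicate 1 (24.1). The 3 arrays with the high scores are called the outlying arrays hereafter. All markers of the cell types and regions looked at were over a log2 intensity of 4 in these hippocampi, as were 34785 of the 41345 probe sets. The lowest mean of a thalamus and habenula marker was 4.77. At an unadjusted p under 0.01, the threshold of the study's methods, limma called 393 of 35195 probe sets with CM-695, 864 of 35303 with CM-414 and 395 of 35199 with SAHA and tadalafil against vehicle. After Benjamini-Hochberg adjustment over all probe sets tested, 0 (0%) with CM-695, 0 (0%) with CM-414 and 1 (0.00284%) with SAHA and tadalafil were under 0.05.

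With CM-695, Atg3 was higher than with vehicle on every array, and none of the 10 genes passed the threshold. Its log2 intensities were 9.01, 8.88 and 8.95 in CM-695 mice, against 8.74, 8.66 and 8.57 in mice receiving vehicle. The groups did not overlap, and the gap between the lowest CM-695 array and the highest vehicle array was smaller than the distance between the highest and lowest array within either group. The mean was 8.95 ± 0.07 in CM-695 mice and 8.66 ± 0.09 in vehicle mice (SD, n = 3 each), a log2 fold change of 0.29 (SE 0.10, 95% confidence interval 0.06 to 0.52), which is 1.22-fold. In limma, on the 6 arrays of these groups, the unadjusted p was not under the threshold of 0.01, 2.04% of the probe sets tested had a smaller one, and the adjusted p = 0.945, with all 3 CM-695 arrays higher.

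At the unadjusted threshold of 0.01, 0 of the 10 members were called with CM-695, where 1.12% of all probe sets were, and 1 (Atg3) was under 0.05, where 5.09% were. No member, and no probe set at all, had an adjusted p under 0.05. There were 2 members without overlap between the groups, both higher with CM-695, Atg3 and Gabarapl1, where 10.4% of all probe sets did not overlap and 5.28% were higher without overlap. Log2 fold changes were positive for 7 genes and negative for 3, with a median of 0.10 beside 0.01 over all probe sets, of which 52.0% were positive.

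**Figure D1:**
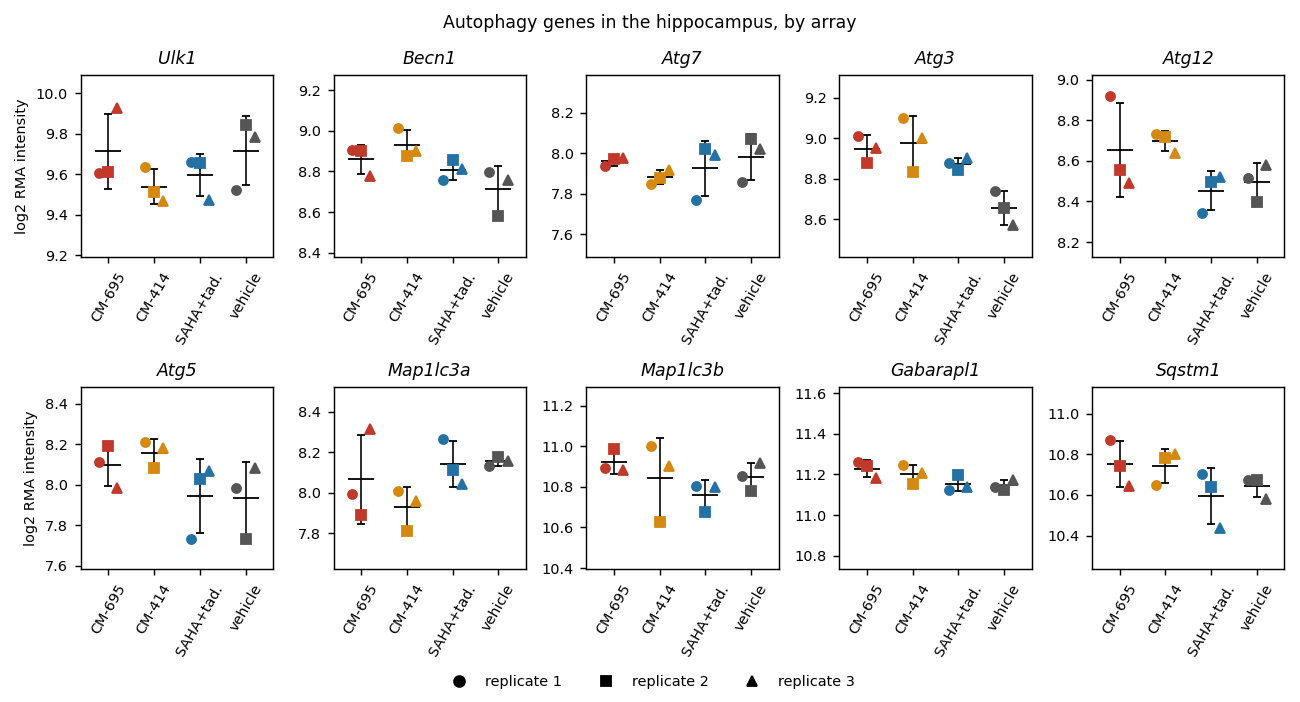
Log2 RMA intensity (y axis, 1 panel per gene, each with its own range of levels) of the autophagy genes in each of the 12 hippocampal arrays, by treatment group (x axis, SAHA+tad. is SAHA and tadalafil), with marker shape giving the replicate number, a horizontal line for the group mean and bars for 1 SD (n = 3). Atg3 is the panel in which all 9 treated arrays, from 8.83 upwards, lie above the 3 vehicle arrays, at most 8.74.

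With CM-414, in a fit of all 12 arrays, Atg3 passed the unadjusted threshold and was the only member to do so. With CM-695, fitted above on 6 arrays, Atg3 also passed when all 12 arrays entered the fit. Its log2 intensities were 9.10, 8.83 and 9.00 in CM-414 mice, against 8.74, 8.66 and 8.57 in vehicle mice. All 3 CM-414 arrays were above all 3 vehicle arrays, with CM-414 replicate 2 closest to them. The mean was 8.98 ± 0.13 in CM-414 mice and 8.66 ± 0.09 in vehicle mice (SD, n = 3 each). The log2 fold change was 0.32 (SE 0.09, 95% confidence interval 0.13 to 0.51), or 1.25-fold, with an unadjusted p under 0.01 and an adjusted p = 0.386 by limma on all 12 arrays, and 0.926% of the probe sets tested had a smaller p. The call was lost without CM-414 replicate 1 (log2 fold change 0.26), CM-414 replicate 3 (0.31) or vehicle replicate 3 (0.28), on the 6 arrays of these groups alone (0.32) and without the outlying arrays (0.32).

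The count of members called with CM-414 was therefore 1 of 10, in the higher direction, where 2.45% of all probe sets were called, 1.53% higher and 0.921% lower. At an unadjusted p under 0.05 there were 2 members, Atg3 and Becn1, where 9.35% of all probe sets were. At an adjusted p under 0.05 there were 0. The groups did not overlap for 5 members, 4 of them higher with CM-414 (Atg3, Becn1, Atg5 and Atg12) and 1 lower (Map1lc3a), where 17.2% of all probe sets did not overlap, 9.85% higher and 7.38% lower. The median over the 10 genes was 0.08, beside 0.00 over all probe sets, and 6 were positive, where 51.2% of all probe sets were.

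With SAHA and tadalafil, Atg3 was again the member that stood clear of vehicle, by less. Its log2 intensities were 8.88, 8.85 and 8.90 in SAHA and tadalafil mice, against 8.74, 8.66 and 8.57 in vehicle mice. The groups did not overlap, and the treated arrays lay within a narrow band. The mean was 8.88 ± 0.03 in SAHA and tadalafil mice and 8.66 ± 0.09 in vehicle mice (SD, n = 3 each), a log2 fold change of 0.22 (SE 0.09, 95% confidence interval 0.03 to 0.41), or 1.16-fold, with an adjusted p = 0.938 by limma, and 3.10% of the probe sets tested had a smaller p. Among the 10 members 0 were called at the unadjusted threshold of 0.01, where 1.12% of all probe sets were, and 1 (Atg3) was under 0.05, where 5.23% were. The same gene was the 1 member without overlap, where 9.29% of all probe sets did not overlap and 4.41% were higher without overlap. The median over the members was -0.03, beside -0.01 over all probe sets, with 4 positive values, where 47.3% of all probe sets were positive.

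These comparisons used the same 3 vehicle arrays, so the differences of Atg3 from vehicle are not independent of each other, and a low level in those 3 arrays enters each of them. In a single limma test of any difference among the 4 groups, Atg3 had an adjusted p = 0.620, and 2.37% of the probe sets tested had a smaller p. For the other 9 members that share was 17.3% or more. Of the members, 0 were called at 0.01, where 1.62% of 34785 probe sets were, and 0 at an adjusted p under 0.05, where 0% were. Since 3 arrays against 3 allow no two-sided exact permutation p under 0.1, the exact test gave 0.1 for each comparison in which a gene did not overlap. The limma p-values rest on the spread between mice labeled as biological replicates, 3 to a group, and on a prior set by eBayes. That prior is a variance estimated over all probe sets, and fits of all 12 arrays also pool the spread over the 4 groups. In whole hippocampus, fewer cells of a type cannot be told apart from less RNA per cell.

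**Figure D2:**
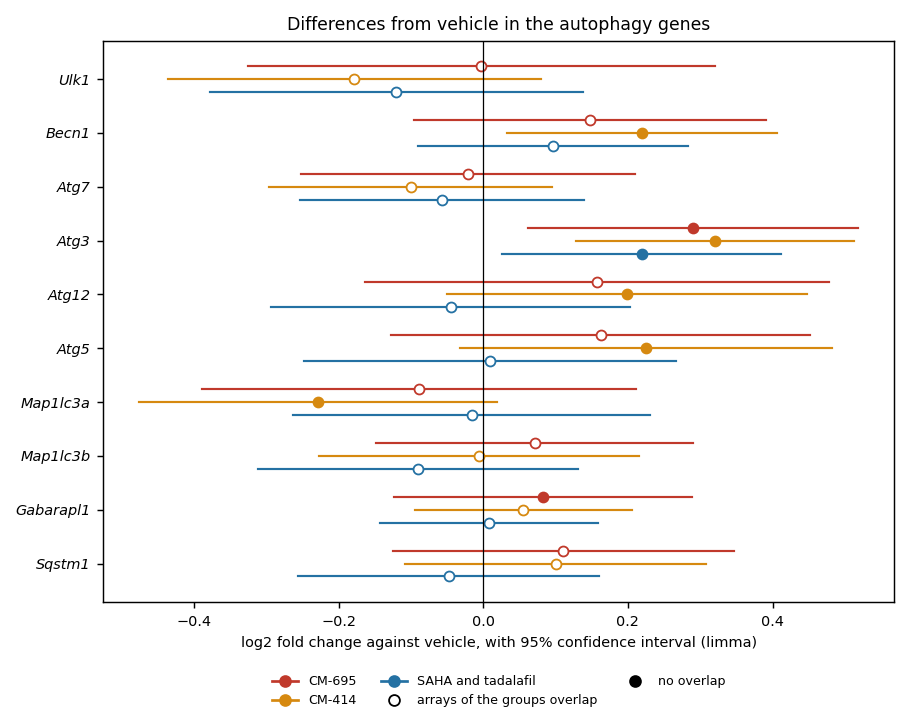
Log2 fold change against vehicle (x axis) of each autophagy gene (y axis), with its 95% confidence interval from limma (6 arrays for CM-695, 12 for the other treatments) and a filled point where the arrays of the groups do not overlap. Atg3 is the only gene whose intervals lie above 0 for all 3 treatments, at 0.29, 0.32 and 0.22, and the treatments share their vehicle arrays.

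At the initiation step, Ulk1, the kinase that starts autophagosome formation, was measured at 9.60, 9.61 and 9.93 in CM-695 mice, 9.64, 9.51 and 9.47 in CM-414 mice, and 9.66, 9.65 and 9.48 in SAHA and tadalafil mice, against 9.52, 9.85 and 9.78 in vehicle mice. Every treated group overlapped with vehicle, where replicate 1 was low and the others high. The log2 fold changes were -0.0028 with CM-695 (95% confidence interval -0.33 to 0.32), -0.18 with CM-414 (-0.44 to 0.08) and -0.12 with SAHA and tadalafil (-0.38 to 0.14), and all 3 intervals held 0.

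Becn1, which encodes the Beclin 1 subunit of the class III PI3 kinase complex, was measured at 8.90, 8.90 and 8.78 in CM-695 mice, 9.02, 8.88 and 8.90 in CM-414 mice, and 8.76, 8.85 and 8.81 in SAHA and tadalafil mice, against 8.80, 8.58 and 8.76 in vehicle mice. CM-414 was the only treatment whose arrays did not overlap with vehicle, and vehicle replicate 2, an outlying array, was the lowest of the 12. The log2 fold change with CM-414 was 0.22 (SE 0.08, 95% confidence interval 0.03 to 0.41, adjusted p = 0.481 by limma), and without the outlying arrays it was 0.15. With CM-695 it was 0.15 (interval -0.10 to 0.39), and with SAHA and tadalafil 0.10 (-0.09 to 0.28).

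Among the conjugation genes, Atg5, whose protein joins ATG12 in the complex that directs ATG8 lipidation, was measured at 8.11, 8.19 and 7.98 in CM-695 mice, 8.21, 8.08 and 8.18 in CM-414 mice, and 7.73, 8.03 and 8.07 in SAHA and tadalafil mice, against 7.99, 7.73 and 8.08 in vehicle mice. All CM-414 arrays were above vehicle, the lowest of them (8.083) just above vehicle replicate 3 (8.081), and the other treatments overlapped with vehicle. The log2 fold changes were 0.16 with CM-695 (95% confidence interval -0.13 to 0.45), 0.23 with CM-414 (-0.03 to 0.48) and 0.01 with SAHA and tadalafil (-0.25 to 0.27). Without the outlying arrays, the CM-414 value was 0.12.

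Atg12, which encodes the ubiquitin-like protein attached to ATG5, was measured at 8.92, 8.55 and 8.49 in CM-695 mice, 8.73, 8.72 and 8.64 in CM-414 mice, and 8.34, 8.49 and 8.52 in SAHA and tadalafil mice, against 8.52, 8.40 and 8.58 in vehicle mice. The CM-414 arrays lay above vehicle without overlap, while in CM-695 mice only replicate 1 was clearly high. The log2 fold change with CM-414 was 0.20 (95% confidence interval -0.05 to 0.45). The value was 0.16 with CM-695 (-0.16 to 0.48) and -0.05 with SAHA and tadalafil (-0.29 to 0.20), and without CM-695 replicate 1 the CM-695 value was 0.02.

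Atg7, which encodes the E1-like enzyme that activates both ATG12 and the ATG8 proteins, was measured at 7.94, 7.97 and 7.98 in CM-695 mice, 7.85, 7.88 and 7.92 in CM-414 mice, and 7.77, 8.02 and 7.99 in SAHA and tadalafil mice, against 7.86, 8.07 and 8.02 in vehicle mice. All treatments overlapped with vehicle, and the log2 fold changes were -0.02 with CM-695 (95% confidence interval -0.25 to 0.21), -0.10 with CM-414 (-0.30 to 0.10) and -0.06 for SAHA and tadalafil (-0.25 to 0.14). The CM-414 arrays were close together and SAHA and tadalafil replicate 1 was the lowest of the 12.

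Of the ATG8 genes, Map1lc3a (LC3A) was measured at 7.99, 7.89 and 8.31 in CM-695 mice, 8.01, 7.81 and 7.96 in CM-414 mice, and 8.27, 8.11 and 8.04 in SAHA and tadalafil mice, against 8.13, 8.18 and 8.16 in vehicle mice. It was the only member with all CM-414 arrays below all vehicle arrays. The log2 fold change with CM-414 was -0.23 (SE 0.11, 95% confidence interval -0.48 to 0.02, adjusted p = 0.566 by limma), and without the outlying arrays it was -0.22. With CM-695 it was -0.09 (-0.39 to 0.21), and -0.20 without the outlying arrays, among them CM-695 replicate 3, the highest of the 12, and -0.0017 without CM-695 replicate 2. With SAHA and tadalafil it was -0.02 (-0.26 to 0.23).

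Map1lc3b (LC3B), the form most often used to follow autophagosomes, was measured at 10.89, 10.99 and 10.88 in CM-695 mice, 11.00, 10.63 and 10.90 in CM-414 mice, and 10.80, 10.68 and 10.80 in SAHA and tadalafil mice, against 10.85, 10.78 and 10.92 in vehicle mice. Every group overlapped with vehicle, and the CM-414 arrays held both the highest and the lowest level. The log2 fold changes were 0.07 with CM-695 (95% confidence interval -0.15 to 0.29), -0.01 with CM-414 (-0.23 to 0.21) and -0.09 for SAHA and tadalafil (-0.31 to 0.13).

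Gabarapl1, a GABARAP-family ATG8 gene, varied least of the 10, with 11.26, 11.24 and 11.18 in CM-695 mice, 11.24, 11.15 and 11.21 in CM-414 mice, and 11.12, 11.20 and 11.14 in SAHA and tadalafil mice, against 11.14, 11.12 and 11.18 in vehicle mice. Its range over the 12 arrays was 0.13 and its pooled SD within groups 0.04. The CM-695 arrays did not overlap with vehicle (lowest 11.182 with CM-695, highest 11.175 with vehicle), with a log2 fold change of 0.08 (SE 0.09, 95% confidence interval -0.12 to 0.29, adjusted p = 0.992 by limma). The value was 0.06 (-0.09 to 0.21) with CM-414 and 0.01 (-0.14 to 0.16) with SAHA and tadalafil.

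Sqstm1, which encodes the cargo receptor p62, was measured at 10.87, 10.74 and 10.64 in CM-695 mice, 10.65, 10.78 and 10.80 in CM-414 mice, and 10.70, 10.64 and 10.44 in SAHA and tadalafil mice, against 10.67, 10.67 and 10.58 in vehicle mice. Each treated group overlapped with vehicle. The value against vehicle was 0.11 with CM-695 (95% confidence interval -0.13 to 0.35), 0.10 with CM-414 (-0.11 to 0.31) and -0.05 with SAHA and tadalafil (-0.26 to 0.16) on the log2 scale.

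When the 4 group means of each gene were put in order, Atg3, Atg5 and Becn1 had the order CM-414, CM-695, SAHA and tadalafil, vehicle. Atg12 differed from it in that SAHA and tadalafil came last. For Atg5 the last step, SAHA and tadalafil over vehicle, was 0.0097, and it was -0.091 without vehicle replicate 2. Of 30 neighbouring pairs of means, 6 were further apart than the gene's pooled SD within groups. They were SAHA and tadalafil over vehicle for Atg3 and Becn1, CM-695 over SAHA and tadalafil for Atg5, CM-695 over vehicle for Atg12, CM-695 over CM-414 for Map1lc3a, and CM-414 over SAHA and tadalafil for Gabarapl1. The pair for Atg3 was the 1 among them whose arrays did not overlap. For Atg7, Map1lc3b, Sqstm1 and Ulk1, 4 genes in all, no neighbouring groups differed beyond that spread. These counts and the shared order were not computed over all probe sets and were not tested, so they describe the members alone.

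Set against each other, CM-695 and CM-414 gave no call among the 10 genes at an unadjusted p under 0.01, where 1.11% of 35326 probe sets were called, and none at an adjusted p under 0.05, where 0% were. The doses of the compounds may have differed, since none was found for CM-414. Atg3 was at 8.95 ± 0.07 with CM-695 and 8.98 ± 0.13 with CM-414 (SD, n = 3 each), a difference of -0.03 with a 95% confidence interval of -0.22 to 0.16. Atg7 was the 1 member without overlap, higher with CM-695 by 0.08 (interval -0.12 to 0.28), where 13.4% of all probe sets did not overlap and 6.45% were higher without overlap. Positive values numbered 6, with a median of 0.02, beside 49.2% of all probe sets. The difference furthest from 0 was that of Ulk1, 0.18 (interval -0.08 to 0.43), but it was 0.07 without CM-695 replicate 3, an outlying array, below that of Map1lc3b (0.10). All 10 intervals held 0. That of Atg3 did not reach the 0.29 or 0.32 by which it differed from vehicle.

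The 3 outlying arrays shared a pattern over the members, which is given as a description because these arrays were picked from the data. Within their own groups, Ulk1 and Map1lc3a were highest on all 3 of these arrays, and Atg5, Atg12, Becn1 and Gabarapl1 were lowest on all 3, while the other 4 genes were mixed. Over 34785 probe sets, 11.4% were highest on all 3, 12.3% lowest on all 3 and 76.2% mixed. Ulk1 was at 9.93 in CM-695 replicate 3, 9.66 in SAHA and tadalafil replicate 1 and 9.85 in vehicle replicate 2, and Atg5 at 7.98, 7.73 and 7.73 in the same order. Atg3 was not among them, with deviations from its group means close to 0 on all 3 of them.

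Deviations from the group means moved together for some pairs of genes over the 12 arrays, which share their RNA sample and array and are given with no test. The correlation was 0.80 between Atg5 and Becn1, 0.75 between Becn1 and Gabarapl1 and 0.74 between Map1lc3a and Ulk1. It was -0.51 between Atg5 and Map1lc3a and -0.50 between Becn1 and Ulk1. Thus the pairs with the highest and the lowest values were made of the genes that were highest or lowest on the outlying arrays.

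**Figure D3:**
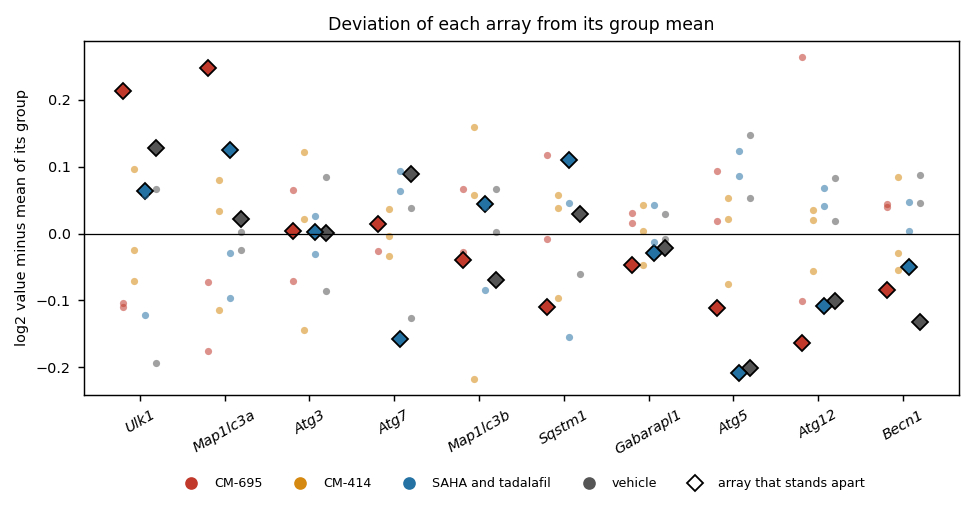
Deviation of each of the 12 arrays from its group mean (y axis, log2 units) for each autophagy gene (x axis), with color giving the treatment group and diamonds the 3 outlying arrays. Diamonds lie above 0 for Ulk1 and Map1lc3a, below 0 for Gabarapl1, Atg5, Atg12 and Becn1, and close to 0 for Atg3.

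The mean of the 10 genes, each centred on its mean over the 12 arrays, was 0.08, 0.03 and 0.05 in CM-695 mice, 0.08, -0.04 and 0.03 in CM-414 mice, and -0.06, -0.01 and -0.05 in SAHA and tadalafil mice, against -0.04, -0.06 and 0.00 in vehicle mice. Among 17390 named genes, those whose values followed this mean most closely over the 12 arrays were Hexim1 (an inhibitor of the elongation factor P-TEFb, Pearson's r 0.92), Klhl9 (0.91), Morn4 (0.90), Snx16 (0.88) and Dstn (an actin-depolymerizing protein, 0.88). They are named by that likeness alone.

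The other genes of the pathway were taken from 7 lists by step, which hold 53 genes beside the 10, of which 51 had a probe set of their own and were tested. With CM-695, 0 of the 51 were called at 0.01 and 35 were positive, with a median of 0.05. With CM-414, 1 was called, higher, and 35 were positive, with a median of 0.05. With SAHA and tadalafil, 0 were called and 23 were positive, with a median of -0.01. At an adjusted p under 0.05 there were 0 in each. All probe sets had medians of 0.01, 0.00 and -0.01. Of them, 1.12%, 2.45% and 1.12% were called and 52.0%, 51.2% and 47.3% were positive, in the same order.

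The gene called was Uvrag, a partner of Beclin 1 in the complex that acts late in autophagosome and endosome maturation. It averaged 9.28 in CM-414 mice and 9.00 in vehicle mice, with no overlap, a log2 fold change of 0.28 (SE 0.08, adjusted p = 0.404 by limma). The call held in 10 of 18 alternatives, and was lost without CM-414 replicate 1 or 2 or any 1 of the vehicle arrays (values from 0.25 upwards), on the 6 arrays alone (0.28), with the replicate block (0.28) and without the outlying arrays (0.25). It was 0.15 with CM-695 and 0.16 with SAHA and tadalafil, without a call.

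By step, the ATG8 and ATG12 conjugation list (11 genes, among them Atg3, Atg5, Atg7 and Atg12) held 9 positive values with CM-414, a median of 0.13, 1 call (Atg3), 6 genes higher without overlap and 1 lower (Atg16l2, -0.04). Over all probe sets with CM-414, 51.2% were positive, 2.45% called, 9.85% higher and 7.38% lower without overlap. The list held 7 positive values with CM-695 and 5 with SAHA and tadalafil, where 52.0% and 47.3% of all probe sets were positive. Of all probe sets, 1.12% were called with each of these treatments. The list is partly made of genes already described and adds no independent count of them. In the ULK complex (5 genes), the ATG9 and WIPI genes (7 genes), the ATG8 family (5 genes), the cargo receptors (11 measured) and the fusion genes (14 genes), 0 genes were called in any comparison with vehicle. In the class III PI3 kinase complex (8 genes), Uvrag was the 1 call. The 5 ATG8 genes were all higher with CM-695 than with CM-414 by their means, with a median difference of 0.12 and 0 calls. Of all probe sets, 49.2% were positive and 1.11% called in that comparison. Leaving out a single array gave, for the members among them, -0.031 to 0.16 for Map1lc3b, 0.015 to 0.23 for Map1lc3a and 0.0036 to 0.051 for Gabarapl1.

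**Figure D4:**
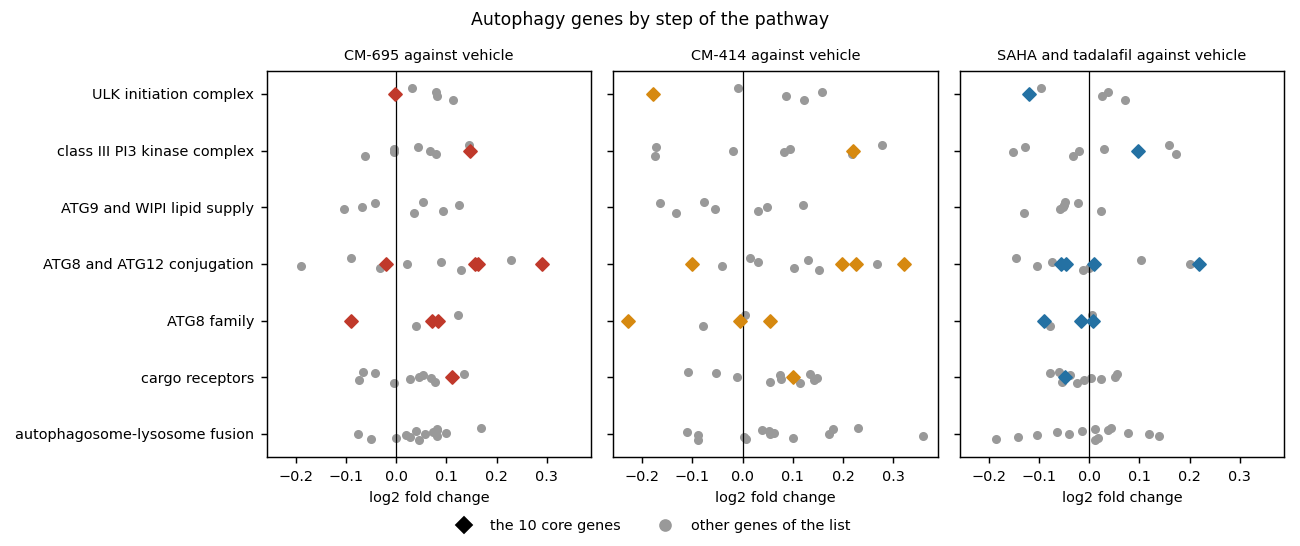
Log2 fold change against vehicle (x axis, 1 panel per treatment) of the measured genes of each step of autophagy (y axis), with the 10 core genes as colored diamonds and the other list genes in gray. Most values lie within 0.2 of 0, and Atg3 is the rightmost diamond in each panel.

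Among genes that control autophagy or act downstream of it, 0 of 18 in the MTOR, AMPK and TFEB list were called in any of the comparisons. Of all probe sets, 1.11% to 2.45% were called, depending on the comparison. In the lysosomal list (22 of 27 genes measured), Gaa, the enzyme that breaks down lysosomal glycogen, averaged 10.16 in CM-414 mice and 9.59 in vehicle mice, a log2 fold change of 0.57 (SE 0.10, adjusted p = 0.205 by limma) that stayed past the unadjusted threshold in all 18 alternatives. With CM-695 it averaged 9.99, a log2 fold change of 0.39 (adjusted p = 0.871), a call kept in 11 of 18 alternatives and lost without any 1 of the CM-695 arrays or vehicle replicate 1 or 2 (values of 0.36 to 0.46 over the arrays left out), with the replicate block (0.39) and without the outlying arrays (0.39). Asah1, acid ceramidase, was called at 0.39 with CM-695 (adjusted p = 0.871) and at 0.37 with SAHA and tadalafil (adjusted p = 0.813). The CM-695 call was kept in 11 of 18 alternatives and lost without any 1 of the CM-695 arrays or vehicle replicate 2 or 3 (0.31 to 0.46), with the replicate block (0.39) and without the outlying arrays (0.33). The other was kept in 14 and lost without SAHA and tadalafil replicate 2 or vehicle replicate 2 (0.29 to 0.45), on the 6 arrays of its groups alone (0.37) and without the outlying arrays (0.34). The median of this list was 0.01 with CM-695, 0.00 with CM-414 and 0.01 for SAHA and tadalafil.

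Of the vacuolar ATPase subunits, which acidify lysosomes (14 of 15 measured), Atp6v1d (0.33) and Atp6ap2 (0.22, adjusted p = 0.404 for both by limma) were called higher with CM-414, and 0 with the other treatments. Over all probe sets, 2.45% were called with CM-414 (1.53% higher) and 1.12% with each of the others. The call for Atp6v1d was kept in 11 of 18 alternatives and lost without CM-414 replicate 1 or 3 or vehicle replicate 2 or 3 (0.28 to 0.38 over the arrays left out), on the 6 arrays alone (0.33), with array weights (0.28) and without the outlying arrays (0.28). That for Atp6ap2 was kept in 8 and lost without any 1 of the 6 arrays (0.20 to 0.23), on the 6 arrays alone (0.22), with the replicate block (0.22), after repeated quantile normalization (0.19) and without the outlying arrays (0.23). Positive values numbered 11 with CM-695, 11 with CM-414 and 7 with SAHA and tadalafil, beside 52.0%, 51.2% and 47.3% of all probe sets. Of the targets of NRF2, which p62 can release from its inhibitor KEAP1 (9 of 10 measured), 5 were positive and 4 negative with CM-414, with a median of 0.05. Nqo1 was called with CM-414 (0.40, adjusted p = 0.404 by limma), a call kept in 10 of 18 alternatives. It was lost without CM-414 replicate 2 or 3 or vehicle replicate 2 or 3 (0.31 to 0.49 over the arrays left out), on the 6 arrays alone (0.40), with the replicate block (0.40), with array weights (0.31) and without the outlying arrays (0.31). In CM-695 against CM-414, 6 of these targets were positive and 3 negative, and 1.11% of all probe sets were called. The cystine transporter gene Slc7a11 was called there (0.56, adjusted p = 0.783 by limma), a call kept in 10 of 18 alternatives. It was lost without CM-695 replicate 1 or 2 or CM-414 replicate 1 or 2 (0.42 to 0.76 over the arrays left out), on the 6 arrays alone (0.56), with the replicate block (0.56), with the mean over its probe sets (0.35) and without the outlying arrays (0.61).

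The levels of cell type markers on the same arrays are given as measured. The microglia markers (9 of 10 measured) had 8 negative values with CM-695, 9 with CM-414 and 8 with SAHA and tadalafil, with medians of -0.14, -0.21 and -0.14, and their summed linear intensity ranged from 2466 to 2868 in CM-695 mice, 2573 to 2874 in CM-414 mice and 2691 to 3140 in SAHA and tadalafil mice, against 2896 to 3685 in vehicle mice. C1qb, a complement gene, was the 1 call among them (-0.74 with CM-695, adjusted p = 0.871 by limma). The call was kept in 13 of 18 alternatives and lost without CM-695 replicate 1 or 2 or vehicle replicate 2 (-0.89 to -0.52 over the arrays left out), with the replicate block (-0.74) and without the outlying arrays (-0.89). Of the 11 neuron markers, 9 were positive with CM-695, 6 with CM-414 and 4 with SAHA and tadalafil. Over all probe sets, 52.0%, 51.2% and 47.3% were positive and 1.12%, 2.45% and 1.12% were called, in the same order. Tubb3, a neuronal tubulin, was lower with CM-414 (-0.45, adjusted p = 0.294, past the unadjusted threshold in all 18 alternatives). It was higher with CM-695 than with CM-414 (0.32, adjusted p = 0.803), a call kept in 10 of 18 alternatives and lost without any 1 of the CM-695 arrays or CM-414 replicate 2 or 3 (0.27 to 0.40 over the arrays left out), on the 6 arrays alone (0.32), with the replicate block (0.32) and without the outlying arrays (0.30).

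Markers of tissue next to the hippocampus were also looked at. Over all probe sets, 52.0% were positive with CM-695, 51.2% with CM-414 and 47.3% with SAHA and tadalafil. In the same order, 1.12%, 2.45% and 1.12% were called. Of the 6 choroid plexus markers measured, 5 were negative with CM-695 (median -0.27), 5 with CM-414 (median -0.30) and 0 with SAHA and tadalafil (median 0.09), and of the 11 thalamus and habenula markers 9 (-0.30), 8 (-0.35) and 8 (-0.09) were, with 0 calls in either list. The summed level of the choroid plexus markers (6 of 7 in the list) ranged from 4551 to 15560 in CM-695 mice, 3201 to 14725 in CM-414 mice and 4928 to 15658 in SAHA and tadalafil mice, against 6181 to 15161 in vehicle mice. That of the thalamus and habenula markers (11 genes) ranged from 1688 to 1929 in CM-695 mice, 1761 to 1847 in CM-414 mice and 1724 to 3502 in SAHA and tadalafil mice, against 1580 to 3572 in vehicle mice, so that the thalamus and habenula sums spread widely in SAHA and tadalafil mice and vehicle mice and little in the others. Among cell types, of the 7 endothelial and mural cell markers, Acta2, a smooth muscle actin, was the 1 call with SAHA and tadalafil (0.63, adjusted p = 0.885 by limma). Its arrays overlapped with vehicle, and 5 of the 7 markers were negative, with a median of -0.05. The call was kept in 9 of 18 alternatives. It was lost without SAHA and tadalafil replicate 1 or 2 or vehicle replicate 2 or 3 (0.41 to 0.85 over the arrays left out), under both looser filters (0.63), on the 6 arrays alone (0.63), with array weights (0.46) and without the outlying arrays (0.57). The astrocyte and oligodendrocyte lists had 0 calls. The part of these cell types and regions in the values of the autophagy genes was not tested.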

How the data were processed

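Hippocampal RNA of 12 mice had been hybridized to Affymetrix Mouse Gene 2.0 ST arrays. The authors background-corrected and RMA-normalized them and deposited log2 intensities for 41345 probe sets, with the RMA version and genome build unstated in the labels and methods. Such arrays carry no read depth, so that precision rests on the 3 mice per group and, in limma, on a variance shared over probe sets.

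Groups came from the labels. The platform annotation gave 23521 probe sets 1 gene symbol, 1820 several and 16004 none listed. Comparisons were tested two-sided in limma 3.58.1 under R 4.3.3 with lmFit, eBayes and Benjamini-Hochberg adjustment over all probe sets tested. CM-695 against vehicle used the 6 arrays of these groups, as in the study's methods, and the others all 12. Probe sets over a log2 of 4, a linear value of 16, on all arrays of the groups compared were kept.

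The members, lists and alternatives were chosen with earlier results of these data known. Named beside the members were at most 3 genes per list at an unadjusted p under 0.01, smallest p first, and the 5 genes most like the members' mean. Results were computed again with other filters, the other set of arrays, a replicate block, other normalization, priors, array weights and gene rules, and without single arrays or the 3 outlying arrays. List genes without a probe set of their own were not analysed here. In data simulated on 35195 probe sets for the CM-695 comparison with vehicle, 65 of 100 changes of log2 0.5 and 93 of 100 of log2 1 were recovered at a p under 0.01. After adjustment, 2 of the smaller changes and 56 of the larger ones passed 0.05. No change below 0.5 was simulated, so these rates do not cover the member differences, at most 0.32. Promoter windows are from RefSeq, GRCm38.p6. Plots were made in Python 3.11.15 (matplotlib 3.10.9).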

Additional observations from a re-analysis of the deposited data

How the results depend on the processing

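Of the 10 autophagy genes, the number at an unadjusted p under 0.01 depended on the fit. With CM-695 it was 1 (Atg3) when all 12 arrays entered the fit, and 0 under the other alternatives. With CM-414 it was 0 when the 6 arrays of its groups were fitted alone, 0 without the outlying arrays, and 0 to 1 when a single array was left out. In the test among the 4 groups it was 1 with a trend and robust prior (Atg3), and 0 to 1 when a single array was left out, the 1 coming without CM-414 replicate 2. No member passed an adjusted p of 0.05 under any alternative run. The median over the members was 0.060 to 0.136 with CM-695 and -0.041 to 0.016 with SAHA and tadalafil when a single array was left out. Atg3 was positive against vehicle in all 18 alternatives of each treatment, at 0.25 to 0.33 with CM-695, 0.26 to 0.39 with CM-414 and 0.18 to 0.26 with SAHA and tadalafil.

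Small values that were not past the threshold changed sign. With CM-695, Ulk1 was 0.017 with arrays centred on their medians and 0.024 with array weights, and Atg7 0.034 with array weights and 0.016 without the outlying arrays. With CM-414, Map1lc3b was 0.00012 with centred arrays. With SAHA and tadalafil, Atg5 was -0.0089 after repeated quantile normalization, and Atg7 0.031 with array weights and 0.066 without the outlying arrays. In CM-695 against CM-414, Sqstm1 was -0.011 after repeated quantile normalization and Atg12 0.041 without the outlying arrays. Leaving out a single array gave, with CM-695, -0.085 to 0.023 for Atg7 and -0.11 to 0.061 for Ulk1, and with CM-414, -0.086 to 0.10 for Map1lc3b. With SAHA and tadalafil it gave -0.091 to 0.11 for Atg5, -0.013 to 0.023 for Gabarapl1, -0.12 to 0.022 for Atg7, -0.096 to 0.0092 for Atg12, -0.079 to 0.032 for Map1lc3a and -0.10 to 0.030 for Sqstm1. In CM-695 against CM-414 it gave -0.10 to 0.031 for Atg3, -0.048 to 0.065 for Sqstm1, -0.031 to 0.16 for Map1lc3b and -0.17 to 0.041 for Atg12. The causes were not tested.

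Over all probe sets, the count at an unadjusted p under 0.01 moved with CM-695 to 1097 with array weights, 1121 without the outlying arrays, 221 over probe sets with 1 symbol and 246 to 918 without a single array. At an adjusted p under 0.05 it moved to 41 without the outlying arrays and 29 without CM-695 replicate 3. With CM-414 the unadjusted count was 1531 with array weights, of which 25 passed an adjusted p of 0.05, and 1331 without the outlying arrays, of which 14 did, and it was 450 without CM-414 replicate 1. With SAHA and tadalafil it was 664 with array weights and 234 over probe sets with 1 symbol. In CM-695 against CM-414 it was 700 with array weights. In the test among the 4 groups it was 1233 with array weights and 1200 without the outlying arrays, of which 16 passed an adjusted p of 0.05. Whether the replicate numbers pair the mice is not given in the sample titles. Same-numbered arrays had correlations of -0.34 to 0.12 between their deviations, which cannot decide it with 3 arrays per group. In CM-695 against CM-414, replicate 1 correlated best with its own number (0.11), and no other array did in any comparison. With the replicate block, the Atg3 value was 0.29 with CM-695, 0.32 with CM-414 and 0.22 with SAHA and tadalafil, and the members' counts were 0, 1 and 0.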
